A study of Mus musculus with 12 samples.

Results

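Mouse liver carried the transcripts of 79 nuclear-encoded genes of the mitochondrial respiratory chain, and their levels were compared between Lcorl knockout and wild-type mice. The members are the rows of the gene table whose symbol begins with Nduf, then a, b, c, s or v and a number (complex I, 37 genes), is Sdha, Sdhb, Sdhc or Sdhd (complex II, 4), or begins with Uqcr (complex III, 8), Cox4 to Cox8 (complex IV, 13) or Atp5 (complex V, 17). A mean of at least 10 normalized counts over all libraries was required. Of 17714 gene rows, 82 matched the symbols. The 3 below the minimum were Cox4i2, Cox6a2 and Cox8b, with means of 6.16, 0.562 and 0.256 normalized counts, and the lowest above it were Atp5g2 and Cox6b2, with 18.2 and 20.1.

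The study sequenced liver RNA of 12 weanling female mice, all 3 weeks old. The KO group held 6 mice with the genotype Lcorl KO, and the WT group held 6 wild-type mice. Livers were collected at about 10 am and frozen, and every mouse gave 1 library. The libraries are called KO 1 to KO 6 and WT 1 to WT 6, where the numbers only name them. The labels do not say how the allele was made or which animals were littermates.

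The respiratory chain is a set of protein complexes in the inner mitochondrial membrane. Complex I takes electrons from NADH and complex II from succinate, ubiquinone carries them to complex III, and cytochrome c carries them to complex IV, which reduces oxygen. Complex V, the ATP synthase, makes ATP from the proton gradient built by complexes I, III and IV. Hepatocytes are rich in mitochondria and use the chain to burn fatty acids and to pay for gluconeogenesis and urea synthesis. Most subunits are encoded in the nucleus, and the genes encoded in mitochondrial DNA were not analysed here.

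The genotype labels were checked on the targeted gene. Lcorl, a nuclear corepressor gene, measured 0.471 ± 1.15 normalized counts in KO livers and 275 ± 26.5 in WT livers (SD, n = 6 each; adjusted p = 1.36e-08, limma). Depth was 27692285 to 31296485 reads in KO and 21769795 to 28655120 reads in WT, so the KO libraries were on the whole the deeper ones. The summed level of 10 hepatocyte markers, all of them detected, was 4792691 to 5682993 normalized counts in KO and 4972273 to 5520048 in WT. Their log2 change was above 0 for 7 and below 0 for 3, with a median of 0.13, and 0 passed the threshold in limma. The 9 stellate cell markers summed to 11578 to 23025 in KO and 18835 to 26603 in WT, and all 9 had a log2 change below 0, of which 1, Lum, passed the threshold (adjusted p = 0.0440, limma). The 8 sinusoidal endothelial markers summed to 5693 to 12303 in KO and 8425 to 13742 in WT. Of these, 6 had a log2 change below 0 and 2 above, with a median of −0.38. In limma 0 of the 8 passed the threshold, and 3 were lower at an unadjusted p under 0.05. The 10 erythroid markers summed to 12872 to 30022 in KO and 11813 to 50895 in WT, with 8 of 10 below 0 and a median log2 change of −0.76, and 1, Tfrc, higher (adjusted p = 0.0321, limma). A pair of libraries stood apart in single transcripts of other tissues, though neither had the highest summed markers of those tissues. Reg1, a gene of the exocrine pancreas, measured 126 normalized counts in KO 2 and 0 in the other livers. Adipoq, a fat cell gene, measured 53.4 in WT 6 and 0 to 0.975 in the other livers. The 4 exocrine pancreas markers that had a row summed to 468 normalized counts in KO 2, 173 to 268 in the other KO livers and 320 to 558 in WT livers. Of the 3 tested, 1 was higher and 2 were lower in KO, and only Cela1 passed the threshold (log2 change −1.12, adjusted p = 0.00533, limma). The 9 adipocyte markers summed to 787 in WT 6 and 1389 in KO 4. Because of Reg1 and Adipoq, the counts of members are also given without KO 2 and WT 6. The part of depth and of these cell types in the results that follow was not tested. In bulk tissue, fewer cells of a type and less RNA per cell cannot be told apart.

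Most respiratory chain transcripts were slightly more abundant in KO livers, but single genes seldom passed the test. The log2 change of KO over WT, on log2(normalized count + 1), which understates the change of low genes, was above 0 for 62 of the 79 genes, against 51.8% of all 13569 genes tested. The median change over the 79 genes was 0.10, a difference of 6.81%, and over all genes tested it was 0.01. Without KO 1 the number above 0 was 53, and without each other library it lay between 61 and 68. With limma and an adjusted p under 0.05, 1 member rose, Atp5s of complex V, against 1.75% of all genes tested. Also 1 member fell, Ndufa8 of complex I, against 2.68% of all genes. Together they were 2 of 79 members (2.53%), against 4.43% of all genes. The symbol rule also takes in Atp5s, Atp5sl and Ndufa4l2, which are not all subunits of the complex they are counted in. Of the 76 members left without these 3, 60 had a log2 change above 0, 0 rose and 1 fell in limma. Without WT 6 and KO 2, limma called 4 of the 79 members and 913 of all 13569 genes, where with all libraries it called 2 and 601. In that setting 64 members had a log2 change above 0.

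At an unadjusted p under 0.05, 15 members were higher in KO, against 11.1% of all genes, and 1 was lower, against 12.4% of all genes. The 2 groups of livers did not overlap, with KO the higher, for 2 members, Sdhd and Uqcr10, against 1.3% of all genes. With KO the lower they did not overlap for 1 member, Ndufa8, against 1.66% of all genes. Going by the authors' deposited table, 8 members (10.1%) had an adjusted p under 0.05, against 8.68% of the 15243 genes listed with a value. The shares of members called, by limma and in that table, lay near those of all genes and on either side of them. Higher in the authors' deposited table were 7, among them Atp5s, Uqcr10, Sdhd, Cox7a2l, Cox7a1 and Uqcrh, against 3.92% of its genes. The 1 lower in the authors' deposited table was Ndufa8, against 4.76%. With edgeR on the recovered reads 0 members and 4.1% of all genes were called, although 17 members had an unadjusted p under 0.05. DESeq2 called 8 members, against 8.68% of the 15243 genes to which it gave an adjusted p. It repeats the authors' test on reads recovered from their counts, with equal adjusted p-values, such as 0.0105 for Sdhd. It is therefore not a second test.

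**Figure D1:**
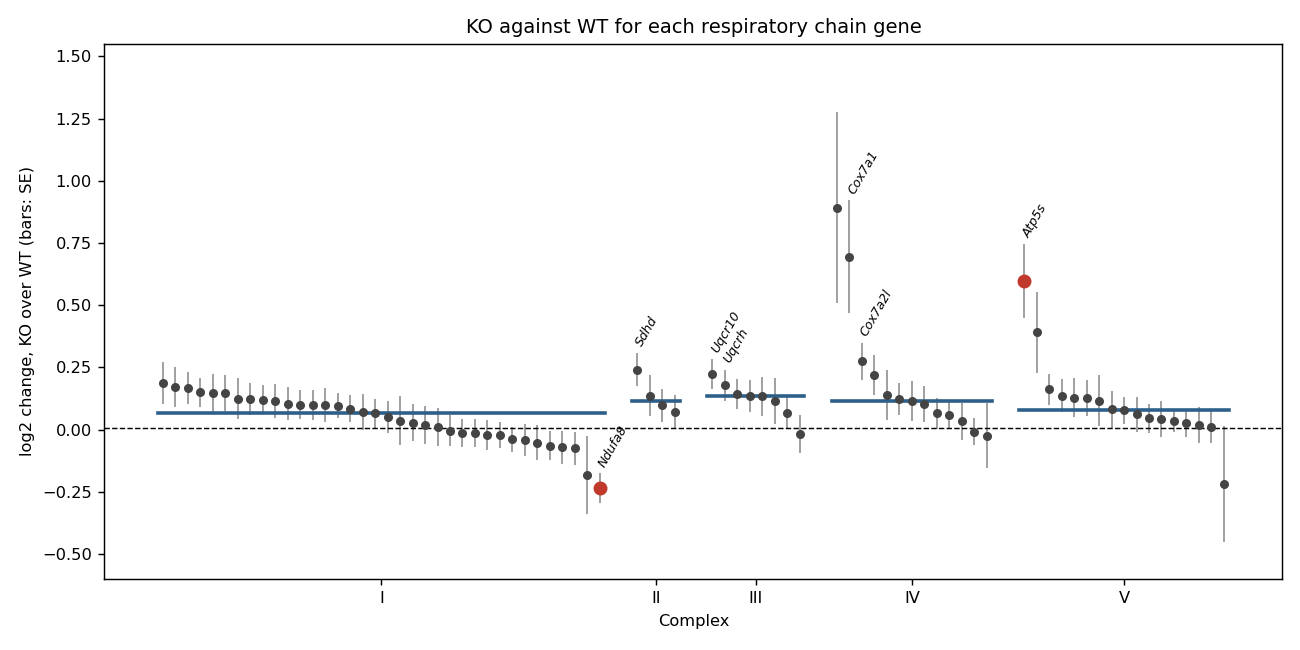
Log2 change of KO over WT for 78 of the 79 genes, grouped by complex I to V and sorted within each, with bars for the standard error (6 KO and 6 WT livers). Red points are the 2 genes called by limma, Ndufa8 and Atp5s; named genes have an adjusted p under 0.05 in DESeq2; blue lines are the medians of each complex over all its members, and the dashed line is the median of all genes tested, 0.01.

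All 5 complexes had a median change above that of all genes. The medians were 0.07 for complex I, 0.12 for complex II, 0.13 for complex III, 0.11 for complex IV and 0.08 for complex V. Complex I was mixed in direction, with 24 genes above 0 and 13 below. In the other complexes the genes above 0 numbered 4 of 4, 7 of 8, 11 of 13 and 16 of 17, in the order II to V. KO 1 weighed on every one of these medians. Without it they were 0.02, 0.07, 0.09, 0.08 and 0.04 for complexes I to V.

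The livers differed more than these medians show. For each liver, the log2 difference of every member from its WT mean was averaged over the 79 genes. KO 1 stood at 0.274, KO 4 at 0.139, KO 5 at 0.125, KO 2 at 0.0642, KO 3 at 0.0363 and KO 6 at −0.0531, and the WT livers ran between −0.0383 and 0.0540. So 4 KO livers lay above every WT liver, KO 3 lay within the WT range, and KO 6 lay below it. KO 1 exceeded every WT liver for 70 of the 79 genes (88.6%), against 23.9% of all genes tested. KO 4 did so for 48 (60.8%), against 21.4% of all genes, and KO 6 for 5 (6.33%), against 14.7%.

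KO 1 was the highest of all 12 livers for 61 members (77.2%), against 13.1% of all genes tested. KO 6 was the lowest of the 12 for 21 members (26.6%), against 5.69% of all genes. The spread between KO livers was larger than that between WT livers for 65 members (82.3%), against 58.9% of all genes tested, with a median SD on the log2 scale of 0.133 in KO and 0.0733 in WT. Without KO 1 the KO spread was still the larger for 53 members (67.1%), against 55.0% of all genes, with a median SD of 0.0999. Over all genes tested the median SD was 0.211 in KO, 0.202 in KO without KO 1, and 0.188 in WT. KO 1 also had the highest hepatocyte marker sum, 5682993, and the lowest sinusoidal and stellate sums, 5693 and 11578, of the 12 livers. The part of these cell markers in the KO 1 values was not tested.

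Taken as a share of all normalized counts, the 79 genes made up 1.29 ± 0.0966% in KO livers and 1.23 ± 0.0299% in WT livers (SD, n = 6 each). The KO shares were 1.17 to 1.41%. KO 2 held the lowest share of the 12 livers although its mean log2 difference was above every WT liver.

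**Figure D2:**
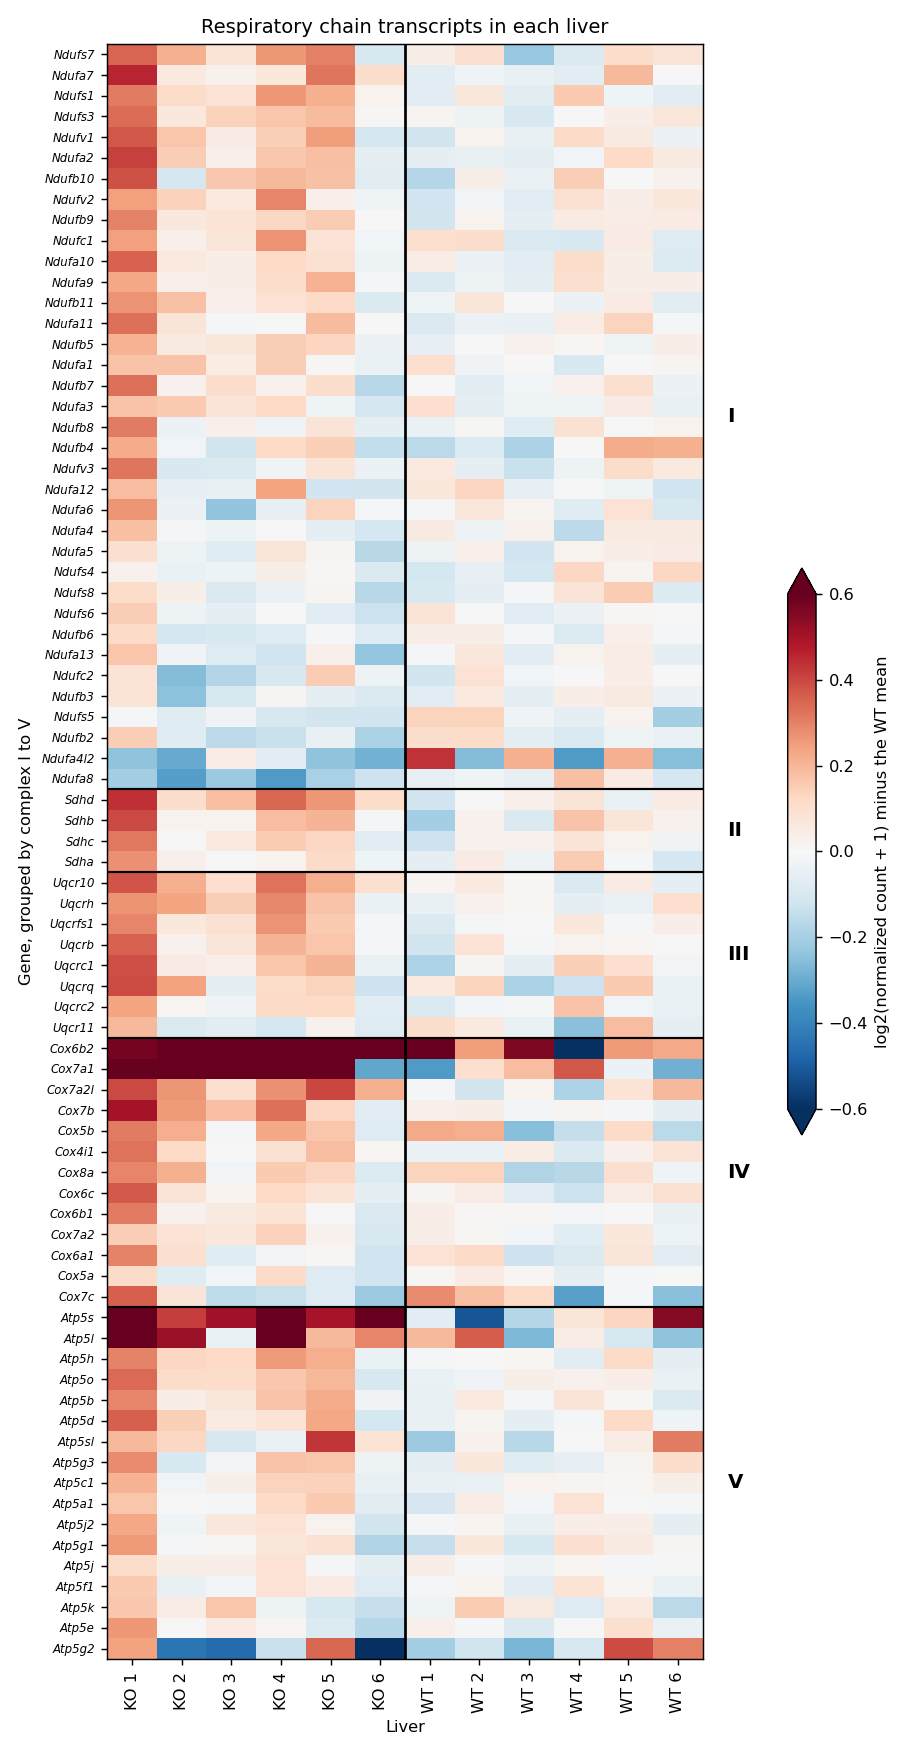
Each row is 1 of 78 of the 79 genes, grouped by complex I to V, and each column a liver, KO left and WT right; colour is log2(normalized count + 1) minus the gene's WT mean, limited to 0.6 either way. KO 1 is red in nearly every row, KO 6 is mostly pale blue, and Ndufa8 is blue in all 6 KO livers.

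The 4 members on which the gene-level results turn are Sdhd, Uqcr10, Ndufa8 and Atp5s, and their promoters are shown to compare the letters at their start sites. Each sequence covers 250 bases before to 50 bases after a RefSeq start on GRCm38.p6, on the gene's own strand. Capitals mark matches on either strand to the motifs NRF1 (GCGCA, any base, GCGC), ETS CCGGAAGT, YY1 AANATGGCG, ERR TCAAGGTCA and the CCAAT box CCAAT, named for factors known to act at nuclear genes of mitochondria or, for CCAAT, at many promoters. The windows are chr9:50603800-50604099 on the minus strand (Sdhd), chr11:4704295-4704594 on the minus strand (Uqcr10), chr2:36049289-36049588 on the minus strand (Ndufa8) and chr12:69724695-69724994 on the plus strand (Atp5s, named Dmac2l in RefSeq).
Sdhd: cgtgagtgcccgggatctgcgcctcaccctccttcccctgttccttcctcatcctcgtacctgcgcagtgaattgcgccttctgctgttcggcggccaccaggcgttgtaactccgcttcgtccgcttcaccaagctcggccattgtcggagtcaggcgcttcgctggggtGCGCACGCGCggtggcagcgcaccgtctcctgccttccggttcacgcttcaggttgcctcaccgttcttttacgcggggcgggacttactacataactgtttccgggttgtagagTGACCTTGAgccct
Uqcr10: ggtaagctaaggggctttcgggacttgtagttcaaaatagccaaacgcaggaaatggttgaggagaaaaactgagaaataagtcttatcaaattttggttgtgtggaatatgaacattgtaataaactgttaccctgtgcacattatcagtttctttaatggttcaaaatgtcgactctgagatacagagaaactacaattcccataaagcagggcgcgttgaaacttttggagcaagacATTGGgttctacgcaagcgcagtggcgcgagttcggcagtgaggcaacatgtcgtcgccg
Ndufa8: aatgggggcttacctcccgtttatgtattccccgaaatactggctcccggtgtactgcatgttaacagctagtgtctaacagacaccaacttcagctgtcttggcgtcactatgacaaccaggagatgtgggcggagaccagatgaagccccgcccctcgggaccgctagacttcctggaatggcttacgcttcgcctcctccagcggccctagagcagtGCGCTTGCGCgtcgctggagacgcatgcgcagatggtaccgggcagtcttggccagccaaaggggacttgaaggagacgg
Atp5s: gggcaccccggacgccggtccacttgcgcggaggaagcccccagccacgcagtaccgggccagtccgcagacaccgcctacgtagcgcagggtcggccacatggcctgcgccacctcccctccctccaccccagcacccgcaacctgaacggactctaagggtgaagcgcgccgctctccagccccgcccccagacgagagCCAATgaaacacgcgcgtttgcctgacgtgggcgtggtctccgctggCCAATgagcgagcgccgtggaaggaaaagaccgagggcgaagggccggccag
The Sdhd window holds an NRF1 match and, on the opposite strand, an ERR match. Ndufa8 holds an NRF1 match on the opposite strand, read GCGCTTGCGC. Uqcr10 and Atp5s hold CCAAT boxes, 1 and 2 of them, and no match to the other 4 motifs. The marked matches do not overlap each other. A match describes the letters and not a bound site.

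Of the 79 members, 67 had a RefSeq window, and only the first listed window of each gene was counted. A match in a later window alone, such as NRF1 in Atp5c1, was left out. The NRF1 letters were found in 16 of the 67 members (23.9%), against 10.0% of the windows of all genes tested and 4.78% of all 27025 genes with a window. YY1 was found in 9 (13.4%, against 5.10% of the genes tested), ERR in 2 (2.99%, against 0.257%), ETS in 5 (7.46%, against 8.01%) and CCAAT in 30 (44.8%, against 38.9%). The members with the NRF1 letters had a median log2 change of 0.03, and the 51 without them 0.10. The 2 members with the ERR letters, Sdhd (0.24) and Atp5g3 (0.08), had a median change of 0.16, and the 65 without them 0.07. The medians with and without the letters were 0.15 and 0.07 for ETS and 0.10 and 0.07 for YY1. For CCAAT they were 0.07 and 0.08. The part of any motif in these changes was not tested.

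Complex I is built from catalytic core subunits, which carry the flavin and the iron-sulfur clusters, and a larger number of accessory subunits. The 7 nuclear core genes had a median log2 change of 0.15, with 6 of 7 above 0 and 4 of 7 at an unadjusted p under 0.05. The 28 accessory genes had a median of 0.04, with 18 above 0. Of the 7 core genes 0 passed the adjusted threshold in limma or edgeR and 1 in DESeq2; at an unadjusted p under 0.05 were 23.4% of all genes. The core score was 0.137 ± 0.120 in KO and 0 ± 0.0571 in WT livers, and the accessory score 0.0323 ± 0.0990 in KO and 0 ± 0.0346 in WT (mean log2 difference from WT, SD, n = 6 each). The difference between core and accessory genes was not tested.

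Ndufa8, an accessory subunit with paired cysteine motifs on the intermembrane side of complex I, was the member that fell. It measured 2256, 2457 and 2615 normalized counts in KO livers (lowest, median and highest), against 2658, 2778 and 3229 in WT livers. The groups did not overlap, though the highest KO liver, KO 6, lay close to the lowest WT liver, WT 6. The log2 change was −0.24 (SE 0.0597; adjusted p = 0.0434, limma). The gene lies on the minus strand of chromosome 2 from 36036326 to 36049406 (GRCm38). Its adjusted p was 0.0507 in edgeR and 0.0513 with no filter on low genes. It stayed under 0.05 without KO 6 or without WT 6, both 0.0304, and was above it without any other single library, up to 0.102 without KO 4, and was 0.136 with runs of neighbouring animal numbers, which the labels do not tie to litters, as a block.

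Ndufs1, the largest core subunit, averaged 4665 ± 362 in KO and 4150 ± 268 in WT, with 3 KO livers above all WT livers (log2 change 0.17, adjusted p = 0.140, limma). Ndufa4, named as a complex I gene but since placed in complex IV, had the highest level of the complex I list per kilobase of exon, with 5664 normalized counts in KO and 5676 in WT. As plain normalized counts it averaged 7821 ± 543 in KO and 7839 ± 438 in WT, a log2 change of −0.0040 with an SE of 0.0613.

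Complex II is succinate dehydrogenase, shared by the citrate cycle and the respiratory chain. All 4 genes had log2 changes above 0, between 0.07 and 0.24. In limma and edgeR 0 passed the threshold, with 1 at an unadjusted p under 0.05, and DESeq2 called 1, Sdhd. Sdhd encodes the small membrane anchor that helps bind ubiquinone. Sdhd measured 7745, 8393 and 9753 normalized counts in KO livers, against 6645, 7266 and 7591 in WT livers. The groups did not overlap, with KO 2 and KO 6 lowest of the KO livers and just above WT 4. Its log2 change was 0.24 (SE 0.0674; adjusted p = 0.0602, limma), and in the authors' deposited table its adjusted p was 0.0105. The gene lies on the minus strand of chromosome 9 from 50596357 to 50603812.

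The other anchor, Sdhc, averaged 5544 ± 527 in KO and 5168 ± 243 in WT. Sdhb, the iron-sulfur subunit, averaged 5465 ± 616 in KO and 4966 ± 442 in WT. Sdha, the flavoprotein that oxidizes succinate, averaged 14175 ± 1139 in KO and 13491 ± 866 in WT. Their adjusted p-values in limma were 0.412, 0.350 and 0.586, and in each the KO and WT livers overlapped.

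Complex III passes electrons to cytochrome c. Of 8 genes 7 had a log2 change above 0. In limma and edgeR 0 passed the threshold, with 3 at an unadjusted p under 0.05, and DESeq2 called 2, Uqcr10 and Uqcrh. Uqcr10 encodes a small subunit of the complex and lies on the minus strand of chromosome 11 from 4701973 to 4704342. Uqcr10 measured 3152, 3433 and 3827 normalized counts in KO livers, against 2782, 2977 and 3072 in WT livers. Its groups did not overlap, and KO 1 and KO 4 stood highest. The log2 change was 0.22 (SE 0.0590) with an adjusted p of 0.0507 in limma and 0.0556 in edgeR. In the authors' deposited table its adjusted p was 0.00724.

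Uqcrh, the hinge protein that helps cytochrome c bind, measured 5475, 6496 and 6889 in KO and 5434, 5573 and 6046 in WT. All KO livers except KO 6 lay above every WT liver (log2 change 0.18, adjusted p = 0.110, limma). Uqcrfs1, the Rieske iron-sulfur protein, averaged 6266 ± 515 in KO and 5656 ± 200 in WT, and 4 KO livers lay above all WT livers. The core proteins Uqcrc1 and Uqcrc2 averaged 7631 ± 835 and 7796 ± 607 in KO, against 6945 ± 555 and 7443 ± 475 in WT. The adjusted p-values of these last 3 genes were 0.174, 0.342 and 0.594 in limma.

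Complex IV, cytochrome c oxidase, held the 2 highest log2 changes of all members, both in transcripts of low count. In limma and edgeR 0 of its 13 genes passed the threshold, with 4 at an unadjusted p under 0.05, and DESeq2 called 2, Cox7a2l and Cox7a1. Its score was above every WT liver in 5 of 6 KO livers, with KO 1 at 0.376, KO 4 at 0.297, KO 2 at 0.228, KO 5 at 0.196, KO 3 at 0.150 and KO 6 at −0.00617. The WT livers ran between −0.0250 and 0.0885 except WT 4, at −0.217. A pair of low transcripts, Cox7a1 and Cox6b2, enters this mean with log2 changes of 0.70 and 0.89, while the median over the 13 genes was 0.11. The count of 5 holds for the mean only. With the median over the 13 genes in each liver, KO 3 stood at 0.0211, within the WT range of −0.0869 to 0.0485.

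Cox7a2l, a factor that joins complexes III and IV into supercomplexes, measured 1779, 2008 and 2201 normalized counts in KO livers, against 1467, 1676 and 1905 in WT livers. Only KO 3 overlapped the WT range, through WT 6. The log2 change was 0.27 (SE 0.0737; adjusted p = 0.0530 in limma, 0.0147 in the authors' deposited table). Of its 50-base coding stretches 50.9% also occur in the pseudogene Gm6969, so its counts are uncertain. Cox7b, a small X-linked subunit, averaged 6718 ± 894 in KO and 5725 ± 144 in WT. In 5 KO livers Cox7b lay above all WT livers and in KO 6 below them all (log2 change 0.22, adjusted p = 0.123, limma).

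Cox7a1, the isoform of subunit VIIa known from heart, skeletal muscle and brown fat, was present at a low level. It measured 38.4, 88.1 and 104 normalized counts in KO livers, against 37.6, 49.2 and 62.4 in WT livers. KO 1 to KO 5 all lay above every WT liver, and KO 6 lay near the lowest WT livers. The log2 change was 0.70 (SE 0.226; adjusted p = 0.0932, limma), and without KO 6 it was 0.90 and passed the threshold. In the authors' deposited table the adjusted p was 0.0187. The 8 striated muscle markers in the table summed to 13.2 to 23.8 normalized counts in KO and 20.4 to 32.2 in WT. Ckm, the muscle creatine kinase, averaged 0.165 in KO and 0.159 in WT, and Ucp1, the brown fat uncoupling protein, was at 0 to 0.850 in KO livers, and at 7.63 in WT 6 and 0 to 0.975 in the other WT livers.

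The common isoform Cox7a2 averaged 4196 ± 258 in KO and 4022 ± 131 in WT, far above Cox7a1 per kilobase as well, with 4445 against 153 normalized counts per kilobase of exon in KO and 4261 against 91.0 in WT. Cox6b2, an isoform known from testis, measured 19.7, 24.2 and 34.7 in KO, against 2.55, 15.6 and 21.2 in WT. KO 1 alone overlapped the WT range. The log2 change of Cox6b2 was 0.89 (SE 0.386; adjusted p = 0.186, limma), and WT 4 lay far below the other WT livers. Its common counterpart Cox6b1 averaged 6226 ± 606 in KO and 5929 ± 113 in WT. Cox4i1, the common form of subunit IV, averaged 10456 ± 901 in KO and 9584 ± 421 in WT. Cox8a averaged 2363 ± 227 in KO and 2183 ± 216 in WT, and Cox6a1 averaged 3899 ± 418 in KO and 3799 ± 271 in WT. None of the common isoforms passed the threshold, with adjusted p-values in limma of 0.277 for Cox4i1, 0.427 for Cox8a, 0.546 for Cox7a2, 0.579 for Cox6b1 and 0.839 for Cox6a1.

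**Figure D3:**
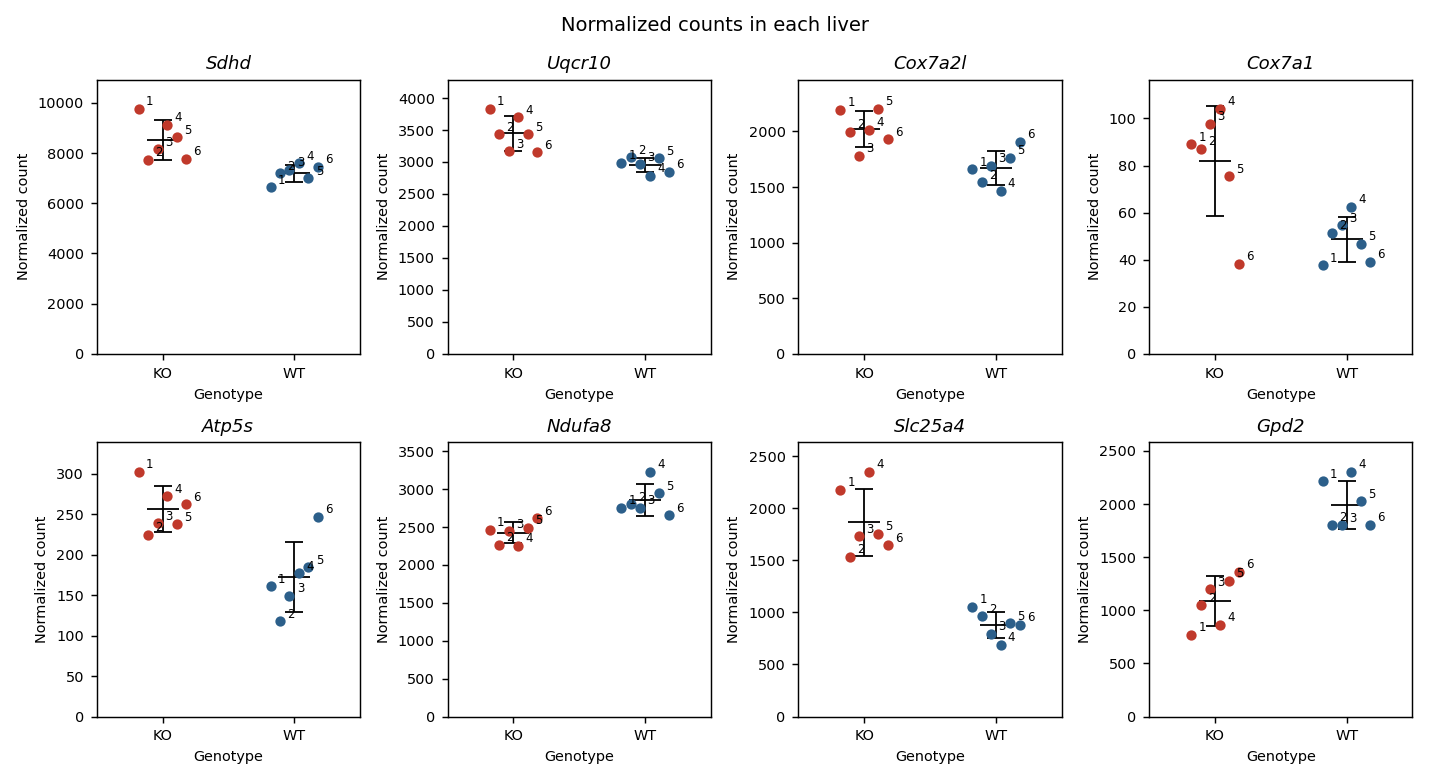
Normalized counts in each liver (points, numbered by liver) with the mean and SD (black) for 6 respiratory chain genes and 2 genes from the list of carriers and dehydrogenases, KO left and WT right. The groups do not overlap for Sdhd, Uqcr10, Ndufa8, Slc25a4 and Gpd2, whereas KO 6 lies among the WT livers for Cox7a1 and WT 6 among the KO livers for Atp5s.

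Complex V joins a catalytic F1 head to a membrane part through a central and a peripheral stalk. Atp5s, which encodes coupling factor B and is now also named Dmac2l, was the member that rose. It measured 225, 251 and 302 normalized counts in KO livers, against 118, 169 and 247 in WT livers. The groups overlapped through WT 6 alone, at 247, which lay above KO 2, KO 3 and KO 5. The log2 change was 0.60 (SE 0.148; adjusted p = 0.0416, limma), or 1.51-fold. Atp5s lies on the plus strand of chromosome 12 from 69724950 to 69744660. In edgeR the adjusted p was 0.0502. The call was kept without KO 2, KO 6 or WT 6 and lost without any other single library, up to 0.0929 without KO 4; without WT 6 it was 0.00682, and without WT 6 and KO 2 it was 0.00914 (log2 change 0.74). With runs of animal numbers as a block the log2 change was 0.46 and the adjusted p 0.153.

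Of the 79 members, 19 had a protein-coding gene starting within 1000 bases upstream on the other strand, of which 15 were tested and 0 were called by limma, edgeR or DESeq2, with 2 at an unadjusted p under 0.05. Timm8b, 98 bases from Sdhd, averaged 977 ± 36.8 in KO and 948 ± 31.2 in WT. Zmat5, 336 bases from Uqcr10, averaged 142 ± 11.2 in KO and 143 ± 15.0 in WT. Where a member and such a neighbour overlap, their reads can be told apart only if the counting used strand, and no source used here states that.

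All 5 genes of the F1 head had log2 changes above 0, between 0.01 and 0.13, and 0 passed the threshold in limma, edgeR or DESeq2, with 0 at an unadjusted p under 0.05 in limma. Atp5b, the catalytic beta subunit, whose mean normalized count was the highest of the 79, measured 39283, 43328 and 48869 in KO livers, against 37531, 39823 and 42014 in WT livers. KO 1, KO 4 and KO 5 lay above all WT livers (log2 change 0.13, SE 0.0771, adjusted p = 0.342, limma). Atp5a1, the alpha subunit, averaged 35852 ± 2416 in KO and 34328 ± 1490 in WT. Per kilobase of exon Atp5a1 was the higher of this pair, at 11436 in KO and 10950 in WT, with Atp5b at 10320 in KO and 9419 in WT.

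The 4 genes of the peripheral stalk, which holds the head still, had log2 changes of 0.03 to 0.16. The highest, Atp5h, averaged 3887 ± 320 in KO and 3467 ± 158 in WT, with 5 KO livers above all WT livers (adjusted p = 0.140, limma). The rotor ring is made of copies of 1 protein that is encoded by Atp5g1, Atp5g2 and Atp5g3. Atp5g3 averaged 12580 ± 1288 in KO and 11855 ± 608 in WT, and Atp5g1 averaged 1178 ± 117 in KO and 1142 ± 73.4 in WT. Atp5g2 was counted at 17.0 ± 5.65 in KO and 19.4 ± 4.11 in WT. The log2 changes of the 3 ring genes were 0.08, 0.04 and −0.22, with adjusted p-values of 0.553, 0.789 and 0.626 in limma. Counts of Atp5h, Atp5g1, Atp5g2 and Atp5l are uncertain, since most of their coding stretches also occur in other genes. Atp5l, the membrane subunit g, averaged 72.7 ± 14.8 in KO and 54.9 ± 9.84 in WT (log2 change 0.39, adjusted p = 0.167, limma).

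**Figure D4:**
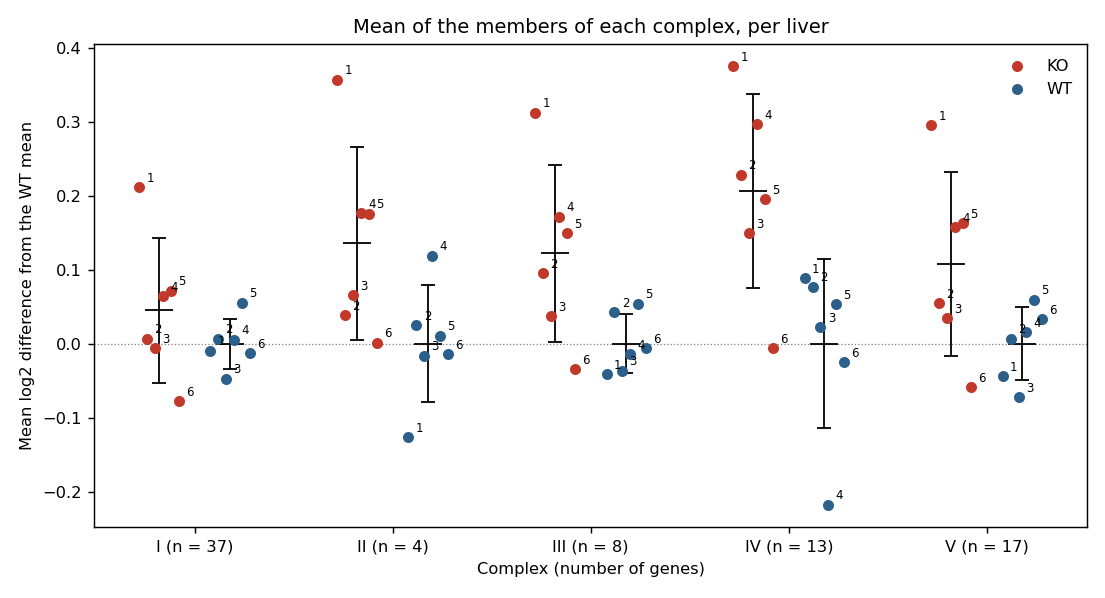
Mean log2 difference from the WT mean over the members of each complex, in each liver (points numbered by liver, KO red and left, WT blue and right), with the mean and SD of each group in black. KO 1 is the highest liver in all 5 complexes, and WT 4 lies at −0.217 in complex IV.

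The counts of several members are uncertain because their coding sequence recurs in other genes. Every 50-base stretch of the coding sequence was looked up in the transcripts of all other genes in GENCODE M21. Among the 12 members with a mean under 1000 normalized counts, 7 shared at least 50% of their stretches, and the median was 60.5%. Among the 67 members with a mean of at least 1000, 5 did (Atp5g1, Uqcrb, Atp5h, Cox6c and Cox7a2l), and the median was 0.0715%. The 7 low members were Atp5g2, Atp5l and Ndufb4, with 100% each, Cox7c (81.9%), Ndufs5 (72.5%), Ndufa12 (69.8%) and Ndufb2 (51.1%). The other 5 low members, Atp5s, Atp5sl, Cox6b2, Cox7a1 and Ndufa4l2, shared 0%. Reads that match several genes may have been dropped or split by the counting, which the sources used here do not state. The levels of the sharing genes are therefore not compared with those of others.

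**Figure D5:**
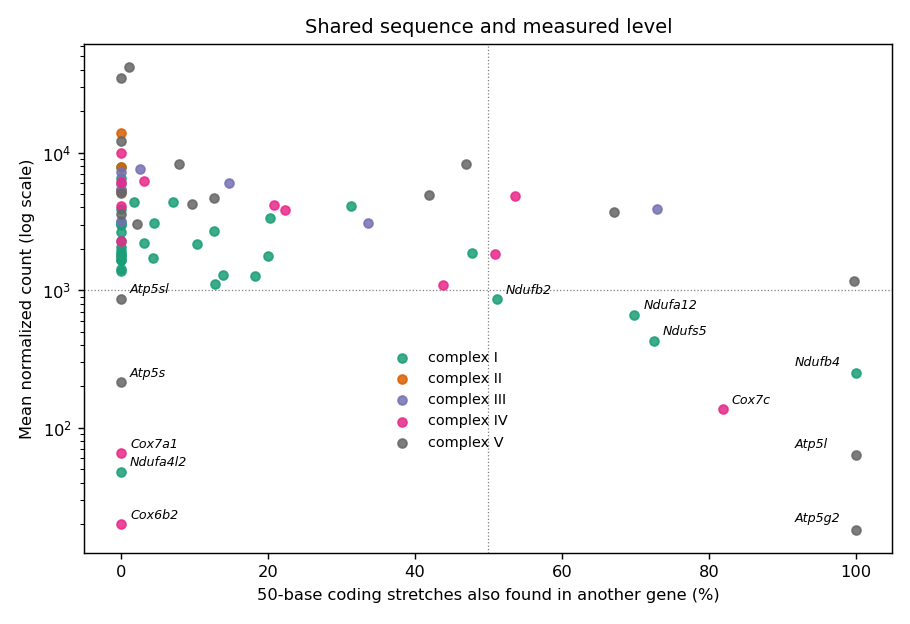
Share of each member's 50-base coding stretches that also occur in another gene (x axis, percent) against its mean normalized count over the 12 livers (y axis, log scale), coloured by complex, with names for members under 1000. The 7 low members on the right share at least 50%, and the 5 low members on the left, Atp5s and Cox7a1 among them, share 0%.

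Genes that work beside the complexes were read from the same fit. Assembly factors held 0 genes that passed the threshold of 17 for complex I, 0 of 4 for complex II, 0 of 6 for complex III, 0 of 25 for complex IV and 0 of 4 for complex V. At an unadjusted p under 0.05 in limma were 3, 1, 1, 6 and 0 of them, edgeR called 0 of all these, and DESeq2 called 2 (Tmem186 and Lyrm2), 0, 0, 1 (Cox19) and 0. The median log2 changes were 0.05, −0.02, 0.02, 0.02 and 0.08. Lyrm2, a complex I assembly factor, had no overlap between livers, at 387 ± 20.9 in KO and 321 ± 37.4 in WT (adjusted p = 0.0789, limma). Cox19, a copper-handling factor for complex IV, averaged 432 ± 28.6 in KO and 503 ± 22.1 in WT (adjusted p = 0.0570, limma).

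Among 15 carriers, dehydrogenases and subunits outside the symbol rule, 1 rose and 1 fell in limma, against 1.75% and 2.68% of all genes, edgeR called 2 and DESeq2 called 4. Slc25a4, an ADP/ATP carrier of the inner membrane, measured 1534, 1743 and 2349 normalized counts in KO livers, against 688, 890 and 1052 in WT livers. The groups were far apart, with the lowest KO liver well above the highest WT liver. The log2 change was 1.08 (SE 0.121; adjusted p = 0.000995, limma). Gpd2, the mitochondrial glycerol phosphate dehydrogenase that feeds electrons to ubiquinone, measured 768, 1123 and 1364 in KO, against 1802, 1917 and 2304 in WT. Its groups did not overlap either (log2 change −0.90, SE 0.136, adjusted p = 0.00384, limma). Atpif1, the inhibitor of the ATP synthase, averaged 550 ± 84.0 in KO and 690 ± 67.6 in WT (adjusted p = 0.0793, limma). The median over the 15 genes was 0.02.

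Of 18 citrate cycle and pyruvate dehydrogenase genes, 0 rose and 2 fell in limma, against 1.75% and 2.68% of all genes, edgeR called 2 and DESeq2 called 3, although 15 had a log2 change above 0 and the median was 0.12. Pdhb, the beta subunit of the first pyruvate dehydrogenase enzyme, averaged 3612 ± 365 in KO and 5410 ± 773 in WT (log2 change −0.58, adjusted p = 0.00700, limma), and 5 KO livers lay below all WT livers. Cs, citrate synthase, averaged 2935 ± 420 in KO and 4005 ± 513 in WT (log2 change −0.45, adjusted p = 0.0279, limma). The Cs call was lost without any single one of KO 1, KO 2, KO 4, WT 1, WT 2, WT 3 and WT 5. With the block on animal numbers the adjusted p was 0.108 for Cs and 0.0613 for Pdhb. Suclg1, a succinyl-CoA ligase subunit, averaged 6980 ± 764 in KO and 5713 ± 422 in WT, with 5 KO livers above all WT livers (adjusted p = 0.0562, limma).

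Of 13 ubiquinone synthesis genes 0 passed the threshold in limma or edgeR, with 5 at an unadjusted p under 0.05, and DESeq2 called 1, Coq9. This lipid-binding protein of the pathway was at 2786 ± 253 in KO and 2365 ± 110 in WT with no overlap of livers (adjusted p = 0.0564, limma). Of 18 regulators of mitochondrial genes 0 passed in limma or edgeR, with 4 at an unadjusted p under 0.05, and DESeq2 called 1, Esrra. Esrra, the estrogen-related receptor alpha, whose motif is the ERR one, averaged 990 ± 127 in KO and 753 ± 114 in WT, and 5 KO livers lay above all WT livers (log2 change 0.40, adjusted p = 0.0583, limma). Of 18 genes of mitochondrial import, pores, dynamics and chaperones, 0 passed in limma or edgeR, with 4 at an unadjusted p under 0.05, and the median was 0.06. DESeq2 called 1 of these, Tomm40. Tomm40, the import channel, measured 1021, 1083 and 1235 in KO, against 817, 965 and 1018 in WT, again with no overlap (adjusted p = 0.0796, limma).

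The 77 mitochondrial ribosomal protein genes had a median of −0.03, with 30 above 0 and 47 below, and 1 rose, against 1.75% of all genes, while DESeq2 called 2. Mrpl3, of the large subunit, averaged 694 ± 15.0 in KO and 577 ± 52.4 in WT with no overlap of livers (log2 change 0.27, adjusted p = 0.0356, limma). The Mrpl3 call was kept without KO 6, WT 4 or WT 6. It was lost without any other single library (adjusted p up to 0.0801), with libraries scaled to equal totals (0.0585) and with runs of animal numbers as a block (0.182). Mrps7, of the small subunit, averaged 1358 ± 84.6 in KO and 1515 ± 44.7 in WT (adjusted p = 0.0940, limma).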

How the data were processed

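RNA of 12 livers was measured, 6 KO and 6 WT, grouped by the genotype in the labels. Per the labels' protocols, the library kit was TruSeq Standard Total RNA. In the submitters' processing notes stand STAR, featureCounts, FastQC and DESeq2 without versions and the build mm10, and neither the annotation nor the strand setting is stated. The authors deposited normalized counts (signal, reads divided by 1 factor for each library). Values in each library were whole multiples of 1 step to within 0.001 reads (100% of values), so reads could be recovered. The authors' deposited table of KO against WT holds log2 fold changes and p-values, raw and adjusted.

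Genotype was tested with limma 3.58.1 (R 4.3.3) on log2(normalized count + 1), with moderation along the mean-variance trend and no covariate, in 13569 genes whose mean was at least 10. Tests were two-sided, with Benjamini-Hochberg adjustment over all these genes and a threshold of 0.05. Alternatives were edgeR 4.0.16 and DESeq2 1.42.0 run on recovered reads, other scalings, pseudocounts, filters and weights, runs of animal numbers as a block, and the omission of libraries. The members, lists and tests were chosen with earlier results of these data known. Since the labels name no litter or cage, p-values measure the spread between these mice.

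Named in detail are, per complex, the 3 members with the smallest p and the 2 with the highest mean, those called by any tool or by the authors, isoform groups, and up to 3 genes of each other list by p. Timm8b, Zmat5 and genes named for shared sequence or as markers were chosen after their values were seen. Some results of single genes are not reported here. Complexes follow symbols, so Ndufa4 counts with complex I. So does Ndufa4l2, a paralogue, and Atp5sl counts with complex V although its later name is that of an assembly protein. Positions and exon lengths come from GENCODE M21 on GRCm38, for 78 of 79 members (Atp5o has no single gene entry). In simulated counts for 13569 genes, limma found 20% of genes that differed 1.25-fold, 54% at 1.5-fold and 80% at 2-fold. Of its calls 6.72% were false. The simulation used the spread of WT livers for both groups, while the median SD of members was 0.133 in KO and 0.0733 in WT. The median change of the members was 1.07-fold. There were 508 rows identical to an earlier one.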

Additional observations from a re-analysis of the deposited data

Results flagged for a closer look

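Among 78 groups of 6 livers examined, 4 had 1 liver whose gap to its nearest neighbour exceeded 0.625 of the group's range. Chance flags about 1 in 20 independent groups, and 4 of 78 is near that share. These groups are not independent, since they share livers and the scores hold the genes, so the part of chance was not tested. Ndufa4, a subunit of complex IV by later placement, measured 8860 normalized counts in KO 1, and the other 5 KO livers lay between 7288 and 7811. Uqcrc2, a core protein of complex III, measured 8373 in WT 4, and the other WT livers lay between 7001 and 7359. Cox6b2, the testis isoform of a complex IV subunit, measured 2.55 in WT 4, and the other WT livers lay between 15.3 and 21.2. The complex IV score of WT 4 was −0.217, and those of the other WT livers lay between −0.0250 and 0.0885. Cox6b2 is 1 of the 13 genes in that score.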

How the results depend on the processing

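No paired analysis was possible because the labels carry no replicate numbers, and those used here only name the livers. The number of genes called, 601, of 13569 tested, was 1323 of 15243 with DESeq2 (1283 of the same 13569), 158 with runs of animal numbers as a block, 913 without WT 6 and KO 2, and 224 to 932 with 1 library left out. The number of members called, 2, was 1 with no filter, 4 with equal upper quartiles, 4 with library quality weights, 0 with edgeR, 8 with DESeq2, 0 with the block and 4 without WT 6 and KO 2. With 1 library left out it was 0 to 8. The highest number came with KO 6 left out, where 909 of all genes were called. Omitting WT 6 gave 3 (932 of all genes), KO 3 gave 2 (582), KO 2 gave 1 (449) and any other library 0 (224 to 471). The other mitochondrial lists, 5 genes, held 11 with weights, 15 with DESeq2, 2 with the block, 13 without WT 6 and KO 2 and 3 to 12 with 1 library left out; Slc25a4 and Gpd2 were called in all of these. The cause of these shifts was not tested. The count of members above 0, added after seeing the data, was 53 to 68. In all 262 comparisons the medians and mean scores by complex differed from the main value by less than the SD of that complex's score over KO livers. That limit is wide: the SD was 0.0979, 0.130, 0.120, 0.131 and 0.124 for complexes I to V. The main medians were 0.07, 0.12, 0.13, 0.11 and 0.08, so a fall to near 0 could have stayed within it. The complex I median fell to 0.02 without KO 1. The medians were above 0 in each setting. With 1 library left out the lowest difference in mean score between KO and WT was 0.0120, for complex I. Among named genes, 4 changed sign near 0. The log2 change of Ndufa4 was 0.0099 with equal upper quartiles, 0.016 with the block, 0.0081 without WT 6 and KO 2, and −0.041 to 0.016 with 1 library left out. With 1 library left out, Cox6a1 ran between −0.019 (without KO 1) and 0.064, Atp5g1 between −0.0024 (without KO 1) and 0.085, and Atpaf1 between −0.015 (without WT 4) and 0.13. Cox6a1 was −0.0027 with weights.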
